A study of Mus musculus with 4 samples.

Results

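Ankyrins and spectrins form the scaffold that lies under the plasma membrane of animal cells. The 7 genes described here are the ankyrin genes Ank1, Ank2 and Ank3, the alpha spectrin gene Spna2, and the beta spectrin genes Spnb1, Spnb2 and Spnb4 (the spectrin genes are now named Sptan1, Sptb, Sptbn1 and Sptbn4, in this order), out of 26031 gene models. Their altered regions were taken as the 5 kb bins of the mm9 genome that overlap the gene body or its 5 kb upstream flank and that the authors listed as differential in 5-hydroxymethylcytosine (5hmC) between cells without LSH and wild-type cells. The 7 windows hold 337 bins, of 511186 bins with determined sequence in the genome. The genes were selected on the listed bins themselves, so the counts below are descriptions and carry no test.

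The series holds 4 libraries of captured 5hmC DNA, 1 for each group: wild-type mouse embryonic stem (ES) cells, LSH knockout ES cells, wild-type mouse embryonic fibroblasts (MEFs) and LSH knockout MEFs. LSH is a SNF2-family chromatin remodeler encoded by Hells. Strain, clone, passage and embryo age are not given in the labels, the ES cells were kept in medium with LIF, and 1 library per group gives no replicate error. The data are 2 lists of bins, 1 for each cell type, which give positions without level, direction, fold change or p-value. A listed bin is called altered here, whether 5hmC rose or fell in it, and the read depth is unknown. No gene level is in the files, so the labelled cell types could not be checked against markers.

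Ankyrins are adaptors. Their repeats bind membrane proteins such as ion channels and cell adhesion molecules, and a second domain binds beta spectrin, which pairs with alpha spectrin into long tetramers cross-linked by actin. Ank1 encodes ankyrin R of the red cell membrane, Ank2 encodes ankyrin B and Ank3 encodes ankyrin G, the organiser of the axon initial segment and nodes of Ranvier in neurons and a component of lateral membranes in epithelia. Ank2 and Ank3 are each known for a giant exon that is spliced in mainly in neurons. In DNA, 5hmC is made from 5-methylcytosine by the TET enzymes, mostly at CpG sites.

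Ank3 held most of the altered bins of these genes. Its window had 10 bins on the ES list and 4 on the MEF list, of 101 bins. This was 9.90% in ES cells (exact 95% binomial interval 4.85% to 17.5%) and 3.96% in MEFs (1.09% to 9.83%), where the intervals cover counting error over bins only. Over the whole genome 1.67% of bins were on the ES list and 1.75% on the MEF list. Among bins with CpG density between the quartiles of the Ank3 bins these shares were 3.68% and 3.74%. The MEF share of Ank3, 3.96%, was near the latter. The other 6 genes together had 5 ES bins and 2 MEF bins among 236 bins, or 2.12% and 0.847%. Of the 15 ES bins and 6 MEF bins, Ank3 thus held 66.7% in each cell type. Altered bins reached 5 of 7 genes in ES cells (Ank1, Ank2, Ank3, Spnb1 and Spnb4) and 3 of 7 in MEFs (Ank1, Ank3 and Spnb1). Among all gene models 19.8% had an ES bin and 14.1% a MEF bin, but the median model is 13.6 kb long while the 7 genes run from 65.9 kb (Spna2) to 493 kb (Ank3), and a longer gene offers more bins.

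**Figure D1:**
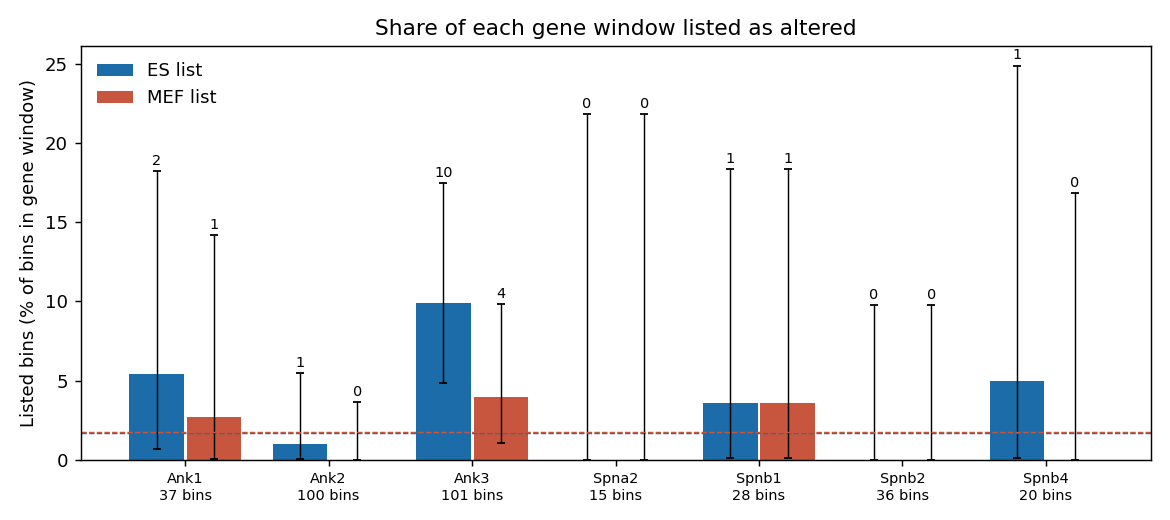
Share of the bins of each gene window that were listed (%, y axis) for the 7 genes (x axis, with the number of bins in each window), ES list in blue and MEF list in red; bars are the share, whiskers its exact 95% binomial interval, numbers above them the count of listed bins, and dashed lines the genome-wide shares of 1.67% and 1.75%. Ank3 has the highest bar in ES cells, at 9.90%, and Spna2 and Spnb2 have no listed bin.

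Along Ank3 (chromosome 10, 68996970 to 69490184, plus strand) the MEF bins lay in the first intron, and the ES bins lay both there and further along the gene. The longest gene model has 43 exons, and its first intron alone spans 274 kb, from 68997033 to 69271163. All 4 MEF bins lay in this intron, 4 of the 55 bins with their midpoint in it. Of the 44 bins from the second exon onward, 0 were on the MEF list. Over the genome 1.75% of bins were on the MEF list, and 3.74% of those with CpG density between the quartiles of the Ank3 bins. At such shares a count of 0 among 44 bins cannot show that MEF bins are fewer in this part. ES bins lay in both parts, 4 of 55 in the first intron and 6 of 44 beyond it. Within the last 102 kb, after the third annotated start (69388280), 4 of 20 bins were on the ES list. The longest run without an ES bin inside the gene was 205 kb, between 69110000 and 69315001. With no replicate and an unknown detection limit in each library, a difference between cell types and a difference in how the lists were made cannot be told apart.

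**Figure D2:**
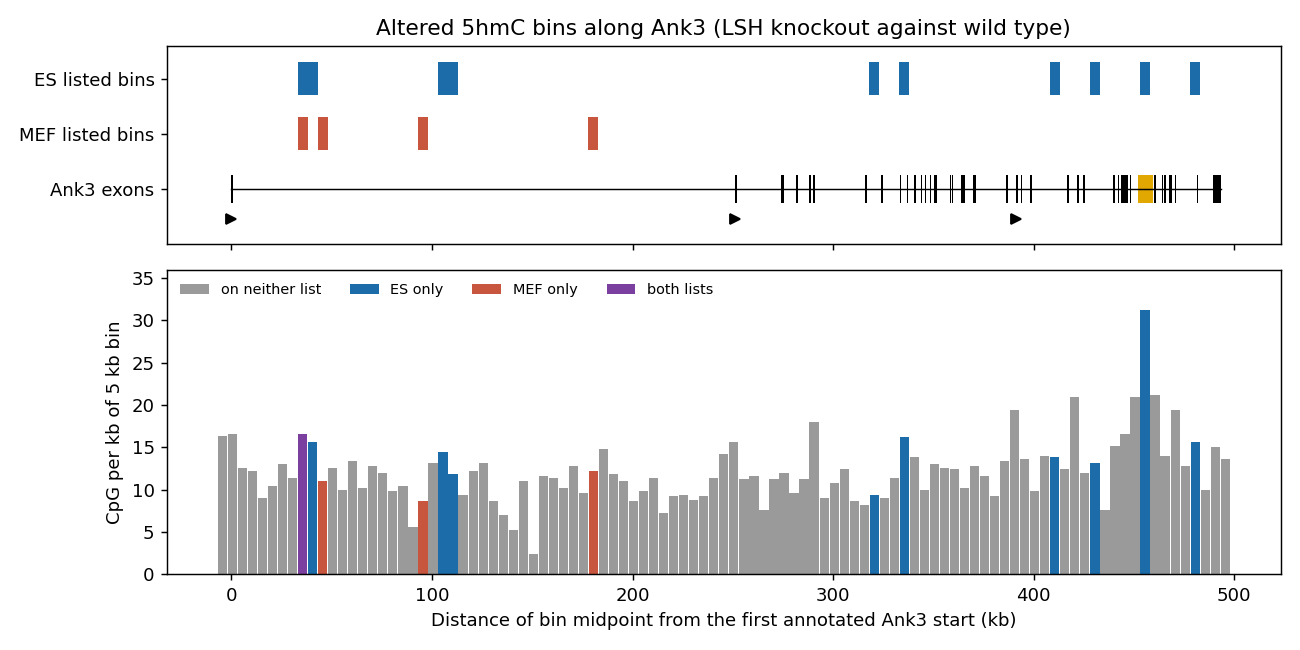
Map of Ank3, drawn to scale by distance from its first annotated start (kb, x axis): above, listed ES bins (blue), listed MEF bins (red), annotated exons (black; those under 0.8 kb are widened to that width), annotated starts (arrowheads) and the longest stretch without a stop codon (yellow); below, CpG per kb of each 5 kb bin, coloured by list. The 4 MEF bins lie between 35.5 and 181 kb, the 10 ES bins between 35.5 and 481 kb, and the bin with the most CpG, 31.2 per kb, is an ES bin over the yellow stretch.

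The 1 bin of the 7 genes on both lists was intronic, at 69030001 to 69035000, 35.5 kb from the first start of Ank3. Over all genes 1.13% of models had a bin on both lists, but the median model is 13.6 kb long and Ank3 493 kb. Of the 5 genes of like length with counts most like Ank3, Dst, Slc39a11 and Frmd4a also had 1 such bin. Agap1 and Slit3 had 0. Along Ank3 the next bin, 69035001 to 69040000, was on the ES list alone, and the one after it, 69040001 to 69045000, on the MEF list alone. These 3 adjoining bins had 16.6, 15.6 and 11.0 CpG per kb, against a median of 11.8 over the 101 bins. They are the only place in the 7 genes where bins of both cell types touched. A second such neighbourhood followed at 69090001 to 69110000, where a MEF bin (69090001 to 69095000) was separated by 1 unlisted bin from 2 touching ES bins. That MEF bin carries the most repeated sequence of the listed Ank3 bins, with 28.8% of its sampled 32-base words found elsewhere in the genome, so reads there are harder to place. The fourth MEF bin stood alone, 181 kb into the gene (69175001 to 69180000).

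To show what these bins look like, the 300 bases with the most CpG outside exons are printed for each of the 3 adjoining bins, plus strand of NCBIM37 (mm9), with every CpG in capitals. They hold 13, 11 and 12 CpG. The adjoining bins were added to the 1 bin on both lists after the positions were seen.
Ank3 intron, bin on both lists (chr10:69034051-69034350): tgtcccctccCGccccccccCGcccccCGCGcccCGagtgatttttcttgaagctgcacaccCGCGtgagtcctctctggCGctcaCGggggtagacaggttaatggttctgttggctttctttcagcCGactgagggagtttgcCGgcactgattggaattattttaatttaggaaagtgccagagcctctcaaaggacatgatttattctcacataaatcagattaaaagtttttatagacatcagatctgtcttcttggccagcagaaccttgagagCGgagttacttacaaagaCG
Ank3 intron, bin on the ES list (chr10:69039641-69039940): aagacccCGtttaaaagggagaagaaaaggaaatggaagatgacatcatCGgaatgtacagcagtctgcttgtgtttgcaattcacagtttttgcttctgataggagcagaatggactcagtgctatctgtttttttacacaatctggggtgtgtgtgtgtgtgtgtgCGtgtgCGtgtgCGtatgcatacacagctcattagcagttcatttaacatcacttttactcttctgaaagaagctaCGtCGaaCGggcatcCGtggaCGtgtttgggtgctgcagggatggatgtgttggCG
Ank3 intron, bin on the MEF list (chr10:69042317-69042616): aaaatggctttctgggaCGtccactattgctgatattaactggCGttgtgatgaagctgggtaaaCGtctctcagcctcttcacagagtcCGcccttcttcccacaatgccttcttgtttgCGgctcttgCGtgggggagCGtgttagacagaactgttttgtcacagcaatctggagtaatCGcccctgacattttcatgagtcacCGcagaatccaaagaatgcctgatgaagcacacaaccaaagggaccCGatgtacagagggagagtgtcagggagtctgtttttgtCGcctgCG

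Beyond the first intron all listed bins were ES bins. The bin at 69315001 to 69320000 lay in the eighth intron of the longest model and had 9.4 CpG per kb, the lowest of the ES bins at Ank3. The bin at 69330001 to 69335000 held exons 9 and 10 of that model, of 99 and 198 bases. In Ank3, 17 of 43 exons are 99 bases or a multiple of that, the length that encodes an ankyrin repeat, the unit of the membrane-binding domain. These exons fall in 10 bins, of which 1 was on the ES list and 0 on the MEF list, beside 10 and 4 of the 101 bins of the window. Intronic bins followed at 69405001 and 69425001, 411 and 431 kb from the first start. The last, 69475001 to 69480000, held exon 42, of 86 bases, close to the 3' end of the gene. By any overlap 8 of the 10 ES bins were intron bins and 2 exon bins, and by bin midpoint all 10 were intron bins. All 4 MEF bins were intron bins under both rules. Of the 101 bins of the window, 70 are intron bins, 27 exon bins and 3 promoter bins.

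The ES bin at 69450001 to 69455000 was the most CpG-dense of all 101 Ank3 bins. It had 31.2 CpG per kb, and the next, its neighbour at 69455001, had 21.2. The annotation marks no exon in it, since it lies between the exons ending at 69444945 and starting at 69457120. Its sequence, however, lies entirely within a stretch of 7707 bases on the coding strand (69448830 to 69456536) that reads without a stop codon in 1 frame, or 2569 codons. The next longest such stretch in Ank3 has 864 bases. Ankyrin G is known for a giant exon of this kind, the gene model used here annotates none at Ank3, and the bin is an intron bin by that model. The bins on either side, which overlap the same stretch over 23.4% and 30.7% of their length, were on neither list.

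The 1 altered bin of Ank2 lay at a like place. Its window (chromosome 3, 126624525 to 127111949, minus strand) is almost as long as that of Ank3, with 100 bins, but had 1 ES bin and 0 MEF bins, which allows a MEF share of up to 3%. That 1 bin, 126645001 to 126650000, lies wholly inside the giant exon of Ank2, which is annotated here (exon 36 of 45 in the model Ank2-208, 126644528 to 126650725, 6198 bases). It is also the most CpG-dense of the 100 bins, at 24.0 per kb against a median of 9. The stop-free stretch around it has 6279 bases, and the next longest in the gene has 789. The giant exon of Ank2 and the stop-free stretch of Ank3 thus each had 1 ES bin and 0 MEF bins, and that bin was the only one lying wholly inside. This pattern was noticed after the positions were seen.

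Bins with either feature were compared with the genome-wide shares of 1.67% and 1.75%. Of the 259 genome bins that lie wholly in 1 annotated exon, 11 (4.25%) were on the ES list and 5 (1.93%) on the MEF list. The Ank2 giant exon bin is among these ES bins. Of the 5784 bins with 24.0 to 31.2 CpG per kb, 4.11% were on the ES list and 2.42% on the MEF list. The limits of this band are the densities of the Ank2 and Ank3 bins themselves. The 300 bases richest in CpG in the Ank3 bin of the stop-free stretch and in the Ank2 giant exon bin are printed on the coding strand, with CpG in capitals; each holds 14 CpG.
Ank3 stop-free stretch (chr10:69454132-69454431, plus strand): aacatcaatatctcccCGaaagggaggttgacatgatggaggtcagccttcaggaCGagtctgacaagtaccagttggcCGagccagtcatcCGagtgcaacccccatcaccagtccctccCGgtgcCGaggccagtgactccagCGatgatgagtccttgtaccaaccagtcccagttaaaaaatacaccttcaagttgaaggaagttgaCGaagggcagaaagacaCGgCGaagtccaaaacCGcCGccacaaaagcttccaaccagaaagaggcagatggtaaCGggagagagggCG
Ank2 giant exon (chr3:126645907-126646206, minus strand): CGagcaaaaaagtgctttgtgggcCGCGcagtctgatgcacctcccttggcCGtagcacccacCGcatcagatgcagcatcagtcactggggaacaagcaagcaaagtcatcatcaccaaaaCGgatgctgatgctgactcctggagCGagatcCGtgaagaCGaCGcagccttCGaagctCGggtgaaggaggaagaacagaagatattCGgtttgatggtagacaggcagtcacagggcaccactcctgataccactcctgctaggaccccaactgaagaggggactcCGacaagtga

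Ank1 (chromosome 8, 24085316 to 24260969, plus strand) had 2 ES bins and 1 MEF bin among 37, or 5.41% (0.661% to 18.2%) and 2.70% (0.0684% to 14.2%). The ES bin at 24215001 to 24220000 held 5 exons, the exons 17 to 21 of the model Ank1-005, with lengths of 198, 99, 99, 99 and 93 bases. The ES bin at 24230001 to 24235000 held exons 34 to 37 of the same model. It counts as a promoter bin only through Ank1-010, a model with a retained intron, and lies 14.5 kb from the nearest protein-coding start. The MEF bin, 24160001 to 24165000, was intronic, 3.75 kb from the nearest protein-coding start. ES and MEF bins of Ank1 were not neighbours.

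Among the 4 spectrin genes described, Spnb1 and Spnb4 had listed bins. Spnb1 encodes the beta spectrin of red cells (chromosome 12, 77681475 to 77811534, minus strand) and had 1 ES and 1 MEF bin of 28, or 3.57% each (0.0904% to 18.3%). The ES bin, 77705001 to 77710000, held exons 21 to 25 of 36, and the MEF bin, 77775001 to 77780000, was intronic. Spnb4 encodes beta IV spectrin, the partner of ankyrin G at the axon initial segment (chromosome 7, 28141402 to 28232705, minus strand). It had 1 ES bin of 20 (28220001 to 28225000), or 5.00% (0.127% to 24.9%), and 0 MEF bins. That bin is intronic by its midpoint and counts as a promoter bin only through the non-coding model Spnb4-007, with 6.62 kb to the nearest protein-coding start. With 10.8 CpG per kb it had fewer CpG than the median bin of Spnb4, 15.9.

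Spna2 and Spnb2 had 0 bins on both lists. Spna2, the alpha spectrin of most tissues, has 15 bins (chromosome 2, 29821080 to 29886971, plus strand). Spnb2, a widely expressed beta spectrin, has 36 (chromosome 11, 29999395 to 30168175, minus strand). In this order, a count of 0 allows shares of up to 20% and 8.33% of their bins in each list. These limits lie above the genome-wide shares, so a lower share than in the genome was not detectable in these windows.

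No listed bin at the 7 genes held a protein-coding transcription start. The windows have 25 bins with such a start, of which 0 were on either list, a count that allows up to 12%. Over the genome 3.33% of such bins were on the ES list and 2.46% on the MEF list, both below that limit. The most CpG-dense bin of Ank1 (43.2 per kb), Spna2 (33.6), Spnb1 (33.4), Spnb2 (36.2) and Spnb4 (35.8) was the bin with a coding start and was unlisted. In Ank2 and Ank3 the most dense bin was instead the one in the giant exon or the stop-free stretch and was on the ES list. The start bins of Ank3 had 15.6 to 19.4 CpG per kb.

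**Figure D3:**
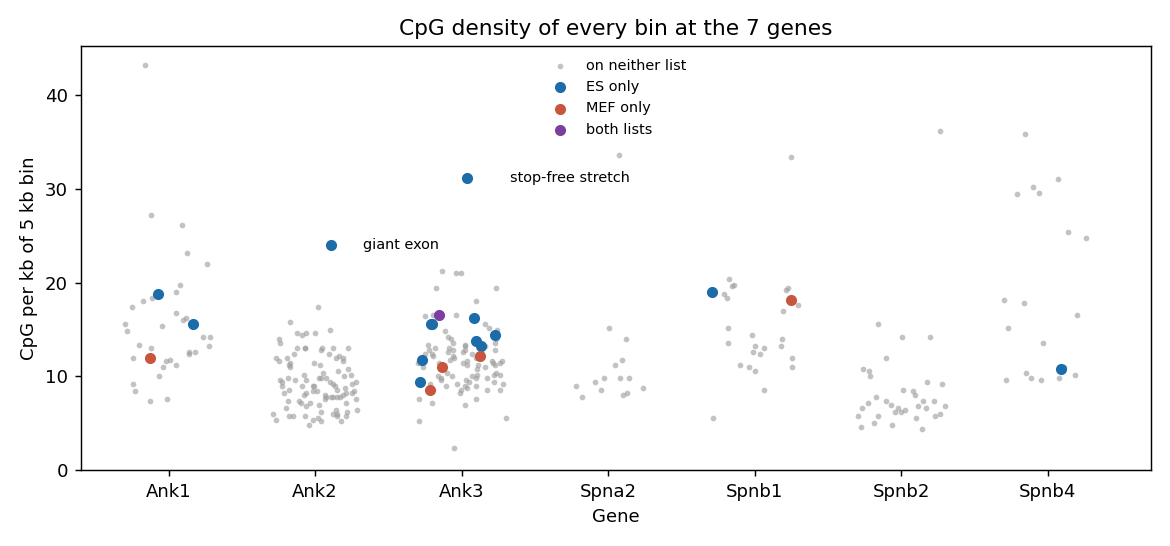
CpG per kb (y axis) of every 5 kb bin at the 7 genes (x axis; points are spread sideways at random), grey for bins on neither list and coloured for listed bins. In Ank2 and Ank3 the highest point, at 24.0 and 31.2 CpG per kb, is an ES bin over the giant exon or the stop-free stretch, while in Ank1, Spna2, Spnb1, Spnb2 and Spnb4 the highest point is grey.

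At Ank3 the ES bins had a higher median CpG density than the whole gene, and the 4 MEF bins a median near it. The median was 15.0 CpG per kb in the 10 ES bins (9.4 to 31.2), 11.6 in the 4 MEF bins (8.6 to 16.6) and 11.5 in the 88 bins on neither list (2.4 to 21.2). Of the ES bins 8 of 10 lay above the median of the gene, and of the MEF bins 2 of 4. The ranges overlap, and 8 of the 10 most dense bins were not on the ES list. At the other 6 genes the median was 18.8 in 5 ES bins, 15.1 in 2 MEF bins and 10.2 in 229 bins on neither list. Over all bins the median was 12.6 in the ES list, 11.0 in the MEF list and 7 in the genome. Among bins between the quartiles of Ank3 (9.8 to 13.6 CpG per kb) 3.68% were on the ES list and 3.74% on the MEF list, above the shares of 1.67% and 1.75% over all bins. In the denser band of 24.0 to 31.2 CpG per kb the ES share was 4.11% and the MEF share 2.42%, so the MEF share was lower there than in the band of Ank3. The part of CpG density in the counts at Ank3 was not tested.

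Set beside genes of its own length, Ank3 stood high in the ES list and less so in the MEF list. Ank3 is among the genes selected on these listed bins, so its ranks are a description only. There are 212 models, Ank3 included of like length (395 to 609 kb) with fewer than 10 other genes inside. Of these 48.1% had an ES bin and 52.8% a MEF bin. The median was 0 ES bins and 1 MEF bin, and the highest counts were 12 and 22. A single one of the other models had more ES bins than Ank3, whereas 32 had more MEF bins. Ank3 had 6 more ES than MEF bins, and 2 of the 212 models, Ank3 included, had a difference of 6 or more. In general the MEF count was higher in 75 models, the ES count in 47, and 90 were equal. Ank2, also in this group, had 1 ES bin, fewer than 66 of the models, while 110 had 0.

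Among these 212 models, the genes with counts most like those of Ank3, by the summed difference in ES and MEF bins, were Dst, Agap1, Slc39a11 and Slit3, followed by Frmd4a in a tie. Dst had 7 ES and 4 MEF bins, Agap1 had 7 and 2, and Slc39a11 had 7 and 6. Slit3 had 8 and 7, and Frmd4a had 4 and 4, a summed difference of 6. Smyd3 (4 and 4), Gm16724 (5 and 5), Tshz2 (12 and 8) and Zfp536 (8 and 0) had the same difference, and Frmd4a comes first by symbol alone. None of these genes matched the 10 and 4 of Ank3.

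**Figure D4:**
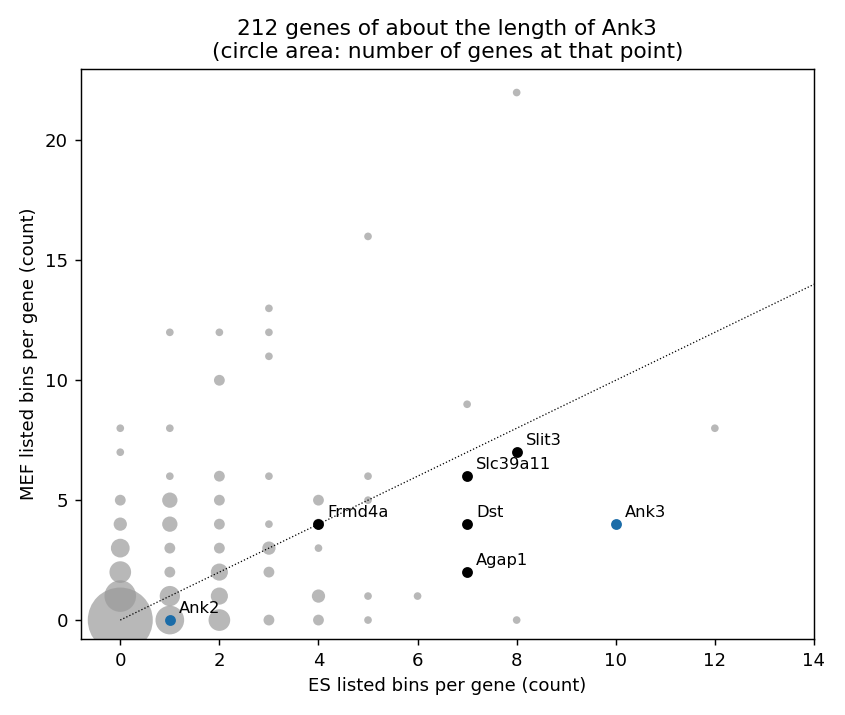
Number of ES (x axis) and MEF (y axis) listed bins per gene for the 212 models of about the length of Ank3; the area of a grey circle gives the number of genes at that point, the dotted line marks equal counts, and blue points are ankyrins. Ank3 lies at 10 ES and 4 MEF bins, below the line, and Ank2 at 1 and 0.

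Outside the window the nearest ES bins were 220 kb upstream and 90.0 kb downstream, and the nearest MEF bins 140 kb upstream and 25 kb downstream. No other gene model overlaps the Ank3 window, so by position its bins belong to Ank3 alone. Whether they bear on Ank3 or on a neighbour was not tested. The nearest models are Cdk1, a cell cycle kinase gene 181 kb upstream with 0 bins, and Ccdc6, 69.7 kb downstream with 6 bins over both lists. Joined within 10 kb, the ES bins of the 7 genes formed 11 stretches and the MEF bins 5, none with more than 2 listed bins of 1 list.

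The membrane partners, junction proteins and other spectrin-repeat genes were counted the same way. Of 22 genes for membrane proteins that ankyrins bind, 10 had an ES bin and 10 a MEF bin, with 13 and 18 bins in all and 0 bins on both lists. Among all gene models 19.8% had an ES bin, 14.1% a MEF bin and 1.13% a bin on both lists. A count of 0 on both lists among 22 genes cannot be told from that share. The median length in this list is 93.1 kb against 13.6 kb over all genes, and a longer gene offers more bins. Itpr1, the inositol trisphosphate receptor gene, had 2 ES and 7 MEF bins, and Cacna1d, a calcium channel gene, had 3 and 2. The neuronal sodium channel gene Scn2a1 had 1 ES bin, Scn8a 1 MEF bin and Scn1a 0, and the adhesion molecule gene Nfasc, which is held by ankyrin G at the axon initial segment, had 1 of each. Of 15 genes for 4.1 proteins and the spectrin-actin junction, 5 had an ES bin and 7 a MEF bin, beside the same 19.8% and 14.1% over all genes and with a median length of 45.7 kb. Epb4.1, which joins spectrin to actin, had 2 of each, and no gene of this list reached 3 bins in either cell type. These genes other than Itpr1 and Cacna1d were chosen for naming after their values were seen.

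Of 14 other genes with spectrin repeats, 9 had an ES bin and 8 a MEF bin, with 24 and 25 bins in all. Their median length is 294 kb, and beside the 19.8% and 14.1% over all genes stand 48.1% and 52.8% among the models of the length of Ank3. Dst, the dystonin gene, had 7 ES and 4 MEF bins, 1 of them on both lists. Macf1, a linker of actin and microtubules, had 4 and 2, Syne2, a nuclear envelope protein gene, 3 and 1, and Trio, a guanine nucleotide exchange factor gene, 3 and 2. Kalrn, a paralogue of Trio, had 2 ES bins and 10 MEF bins, the opposite order to Ank3. Utrn had 2 and 3, and Actn1 had 1 and 2. Trio and Actn1 also had 1 bin each on both lists. This made 3 of the 14 genes with such a bin, beside 1.13% of all gene models, whose median length is 13.6 kb. The part of gene length in this count was not tested. The beta V spectrin gene Spnb5 had 0 of either, as had Dmd, the longest gene of this list at 2257 kb, which lies on the X chromosome; both were chosen for naming after their values were seen. The median number of bins per gene was 0 in the first list and in the second, and 1 in the spectrin-repeat list, against 0 over all genes.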

How the data were processed

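DNA of the 4 samples was fragmented, and pieces with 5hmC were tagged with an azide sugar, biotinylated and captured on streptavidin before sequencing, per the series' design text. BWA, SAMtools 1.3.1 and mm9 are named in the submitters' processing notes without a role. No source used here gives the caller, its threshold or an input library. The files deposited by the authors hold other values than levels: each line is the position of a 5 kb bin and its running number. All 8545 ES and 8972 MEF bins on chromosomes 1 to 19 and X carry the running number that the NCBIM37 reference gives them. Positions are printed 1-based.

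Genes are GENCODE M1 models of protein-coding, lincRNA and processed transcript type, the longest for each name. A promoter bin overlaps 1 kb around a transcription start of any model, otherwise an exon or intron bin by overlap. Genome-wide shares use bins with at most 50% undetermined sequence. Intervals are exact (Clopper-Pearson), limits for a count of 0 are 3 counts of the total, and both cover counting error only. Repeated words were taken from a sample of 1 in 64. The members and gene lists were chosen with earlier results of these data known. By the planned rule, partner genes were named if they had 3 or more bins in a cell type or 1 on both lists. The others named were picked after their values were seen, as stated with them. No test was run. Some members of the gene family are not reported here, and no total includes them. Symbols and synonyms came from a RefSeq table (GRCm38.p6), and every list symbol matched a gene model. Counting was checked on simulated data. Alternatives were the overlap rule, the flank, the gene model, repeated bins, the class rule and the joining distance. The tools were Python 3.11.15, numba 0.67.0, numpy 2.4.6, pandas 2.3.3, scipy 1.17.1 and, for figures, matplotlib 3.10.9. Promoter sequences had been planned for promoter bins and are not printed, since the promoter table is on another build.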

Additional observations from a re-analysis of the deposited data

How the results depend on the processing

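The counts were recomputed under each alternative, 112 values in all for 32 results, and 111 stayed within 1.5 times the value reported. The exception was the number of exon bins of Ank3 on the ES list, which was 2 by any overlap and 0 by bin midpoint. The counts at each of the 7 genes were the same by bin midpoint, without the flank, with 10 kb upstream and with the longest protein-coding transcript. Leaving out bins with over 20% repeated words took 1 MEF bin from Ank3, giving 3. The stretches numbered 11 in ES cells and 5 in MEFs, 13 and 6 when only touching bins were joined, and 8 and 5 when joined within 20 kb. A stricter threshold could not be tried, since the lists carry no score, and with 1 library per group none could be left out. No paired analysis was possible because each group has 1 library and no test was run. Depth is unknown, so an unlisted bin may be unaltered or too thinly covered.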
